A study of Mus musculus with 10 samples.

Results

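The interferon-induced antiviral genes considered here are the 4 Ifit genes (Ifit1, Ifit2, Ifit3 and Ifit3b), 3 Ifitm genes (Ifitm1, Ifitm2 and Ifitm3), Bst2 and Rsad2. They were chosen by name from the IFIT and IFITM families together with a pair of single-gene effectors, with earlier results of these data known. Further relatives of the families are given later. All 9 are among the 55401 genes of the count table. RNA was sequenced from the livers of 10 female mouse fetuses at E18.5, near the end of gestation, of which 5 had inherited a deletion of the microRNA gene Mir483 from the father (Mir483Pat-KO) and 5 were WT littermates. Mir483 lies in an intron of the imprinted growth factor gene Igf2. The deleted allele was made in JM8.F6 embryonic stem cells of the C57BL/6N strain, in which Cre removed the selection marker. It came from 2 stem cell clones, and the colony was then bred to C57BL/6J mice, so that sequence linked to the deletion and the deletion itself cannot be told apart. The labels name no treatment and no litters, and each library was made from the liver of 1 fetus.

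Type I and type III interferons signal through JAK kinases to the transcription factor complex ISGF3, which binds interferon-stimulated response elements in front of its target genes. IFIT proteins bind viral RNA and hinder its translation, IFITM proteins block the fusion of viruses with cell membranes, Bst2 (tetherin) holds budding virions at the cell surface, and Rsad2 (viperin) makes a nucleotide that ends viral RNA chains. Many of these genes have a low level in uninfected tissue, which a tonic interferon signal helps to maintain.

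Library totals ran from 10831350 to 14765880 counts. Mir483, the deleted gene, had between 10 and 22 counts in each WT library and 0 in each Mir483Pat-KO library (adjusted p = 0.00133, edgeR quasi-likelihood test), in accord with the labels. Levels are given as CPM, the counts per 1000000 counts of the TMM-scaled library total, and a gene was called changed at an adjusted p below 0.05 with a fold change above 1.5, in a fit of all 14098 genes that passed the low-count filter. All 9 antiviral genes passed that filter. The same livers showed hepatocyte and erythroid markers at high levels, as fetal liver does: the 10 hepatocyte markers summed to between 218821 and 243214 CPM in WT and between 201231 and 231803 in Mir483Pat-KO.

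Of the 9 genes, 6 were called lower in Mir483Pat-KO livers: Ifit1, Ifit2, Ifit3, Ifit3b, Ifitm3 and Bst2. Over all genes tested 0.872% were called lower. The same 6 genes were those with an adjusted p below 0.05, against 2.76% of all genes that were lower and passed it. In 4 of them (Ifit1, Ifit3, Ifit3b and Bst2) every Mir483Pat-KO library lay below every WT library, which held for 3.25% of all genes. Rsad2 was lower in 4 of 5 mutant libraries and did not pass, Ifitm1 differed little, and Ifitm2 was the only one of the 9 with a fold change above 1. The median log2 fold change of the 9 genes was −0.66, beside 0.0042 for all genes tested. The number of genes called depended on single libraries: it was 1 (Bst2) with mutant replicate 4 left out, 3 with mutant replicate 2 or WT replicate 5 left out, and 7 with mutant replicate 3 left out.

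**Figure D1:**
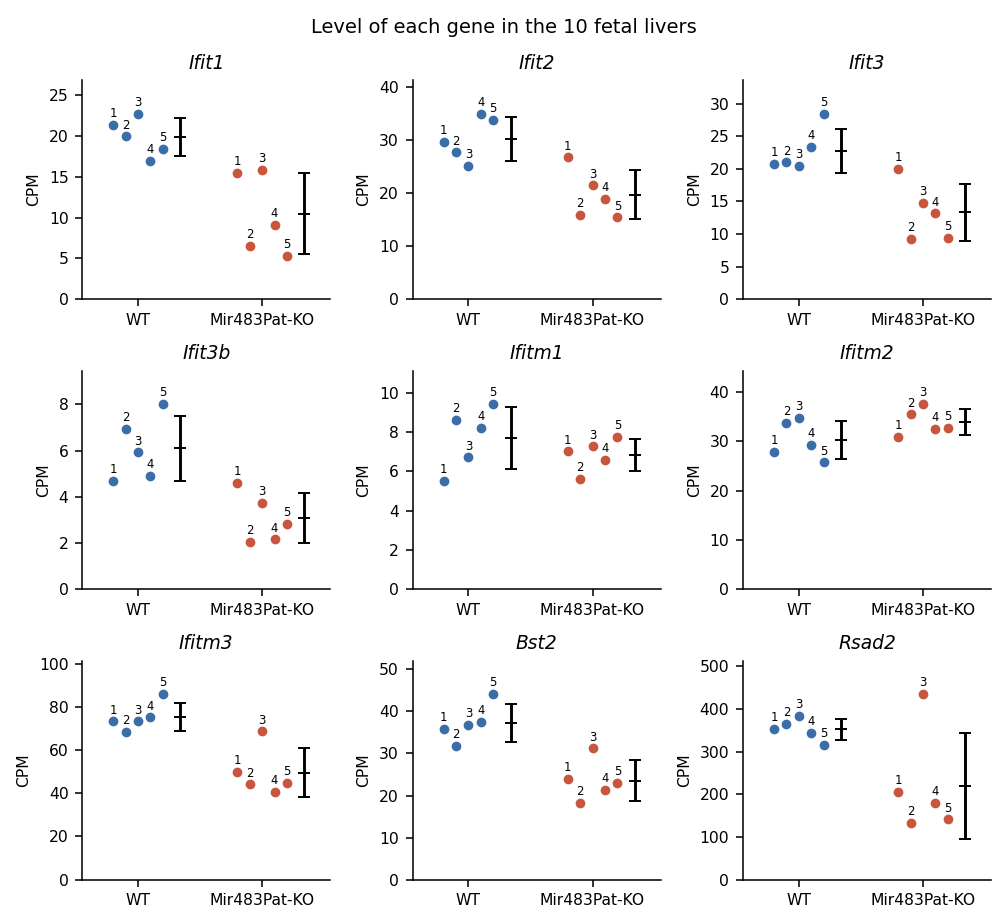
CPM of each of the 9 genes in every library, WT in blue and Mir483Pat-KO in red, with the replicate number above each point and the mean ± SD (n = 5) as a black bar. The groups do not overlap for Ifit1, Ifit3, Ifit3b and Bst2, and for Rsad2 the mutant replicate 3 stands at 434.6 CPM, above every WT library.

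**Figure D2:**
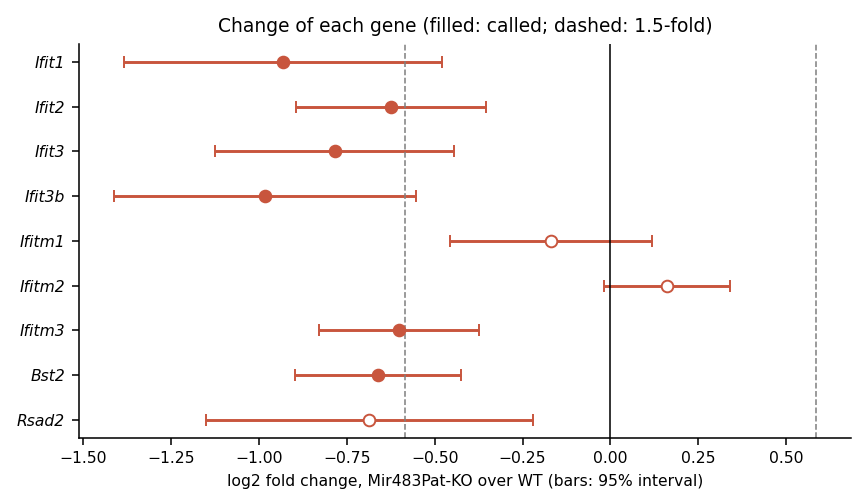
Log2 fold change (Mir483Pat-KO over WT) of each gene with its normal 95% interval from the SE of the edgeR fit, filled where the gene was called. Dashed lines mark a 1.5-fold change, and the intervals of Ifitm1 and Ifitm2 include 0.

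In WT liver the genes differed widely in level. Per kilobase of annotated exon, Ifitm3 was highest with a mean of 111 CPM per kilobase, a level above that of 98.1% of the genes tested. Rsad2 followed with 81.2, and Ifitm2 and Bst2 came next with 46.3 and 41.2 CPM per kilobase. Ifitm2 and Bst2 overlapped between libraries, whereas Ifitm3, Rsad2 and this pair did not. Ifit3 had 13.1 CPM per kilobase, and Ifit2, Ifit1 and Ifitm1 overlapped one another at 7.69, 7.50 and 7.03. Ifit3b was lowest, with 3.05 CPM per kilobase. In the mutants the mean of Rsad2 (50.5 CPM per kilobase) was no longer above that of Ifitm2 (51.7).

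The Ifit genes lie side by side on chromosome 19 (GRCm38), on the plus strand, in the order Ifit2 (chr19:34550694-34576419), Ifit3 (chr19:34583531-34588731), Ifit3b (chr19:34607970-34613401) and Ifit1 (chr19:34640871-34650009). The stretches of their promoters with matches to the core of the interferon-stimulated response element are shown because this short motif is what ISGF3 recognises. The core was searched as GAAANNGAAA on both strands of windows from 250 bases before to 50 after the transcription start in RefSeq (GRCm38.p6), and was found in 3.44% of all 32851 windows. Capitals mark the matches, which here read on the minus strand, and overlapping matches run together.
Ifit1, chr19:34640773-34640825, plus strand: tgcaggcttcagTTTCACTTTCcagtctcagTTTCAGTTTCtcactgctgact
Ifit3, chr19:34583361-34583428, plus strand: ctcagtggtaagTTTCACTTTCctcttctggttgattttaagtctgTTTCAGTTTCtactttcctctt
Ifit3b, chr19:34607757-34607824, plus strand: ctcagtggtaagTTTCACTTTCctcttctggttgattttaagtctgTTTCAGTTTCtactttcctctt
Ifit1, Ifit3 and Ifit3b each held 2 matches, as did 0.225% of all windows, and the 68 bases of Ifit3 and Ifit3b shown are part of a run of 169 bases that both windows share. Neither of the 2 windows of Ifit2 held a match to this core, which says only that these letters are not in these windows.

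Ifit1, which recognises RNA that lacks methylation of the cap, had 21.4, 19.99, 22.8, 17.0 and 18.4 CPM in WT replicates 1 to 5 and 15.5, 6.49, 15.9, 9.10 and 5.32 CPM in Mir483Pat-KO replicates 1 to 5. The groups did not overlap, with mutant replicates 1 and 3 nearest to WT and replicates 2, 4 and 5 lower. The mean fell from 19.9 ± 2.29 to 10.5 ± 4.98 CPM (SD, n = 5 each), a log2 fold change of −0.93 ± 0.23 (SE) with an adjusted p of 0.0299. The call was lost when WT replicate 3 (−0.89, adjusted p = 0.0614) or mutant replicate 2 (−0.81, 0.0658) or 4 (−0.90, 0.0824) was left out.

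Ifit2, which has been linked to apoptosis besides its antiviral role, had 29.6, 27.6, 25.1, 34.9 and 33.8 CPM in WT and 26.7, 15.8, 21.4, 18.8 and 15.4 CPM in Mir483Pat-KO libraries. Mutant replicate 1 lay above WT replicate 3, and the other 4 mutant libraries lay below all WT libraries. The log2 fold change was −0.62 ± 0.14 with an adjusted p of 0.0180, 1.54-fold lower and thus close to the 1.5-fold threshold. It fell under that threshold without WT replicate 4 (−0.57), WT replicate 5 (−0.58), Mir483Pat-KO replicate 2 (−0.57) or Mir483Pat-KO replicate 5 (−0.55), and failed the test itself without Mir483Pat-KO replicate 4 (−0.62, adjusted p = 0.0540).

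Ifit3 had 20.7, 20.99, 20.5, 23.4 and 28.5 CPM in WT and 19.95, 9.26, 14.8, 13.1 and 9.40 CPM in Mir483Pat-KO libraries. Mutant replicate 1 was just under the lowest WT library, and the rest were clearly lower. Its near-copy Ifit3b had 4.70, 6.94, 5.92, 4.92 and 8.02 CPM in WT and 4.60, 2.06, 3.75, 2.16 and 2.83 CPM in Mir483Pat-KO libraries, and again mutant replicate 1 was next to the lowest WT library. The log2 fold changes were −0.78 ± 0.17 for Ifit3 (adjusted p = 0.0181) and −0.98 ± 0.22 for Ifit3b (adjusted p = 0.0187). Neither call held without Mir483Pat-KO replicate 4 (−0.79 with an adjusted p of 0.0524 and −0.90 with 0.0572), and that of Ifit3b was also lost without WT replicate 5 (−0.86, 0.0509). Of the 50-base stretches of their transcripts, 51.2% of those of Ifit3 and 45.0% of those of Ifit3b occur in another gene, almost all of them in each other, so the split of reads between the pair is uncertain. Ifit1 shares 7.13% of such stretches with other genes, mainly Ifit1bl2 and Ifit1bl1, and Ifit2 shares none.

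The 3 Ifitm genes sit on chromosome 7, as Mir483 does, between 1644 and 1699 kb from it: Ifitm2 at chr7:140954837-140955987 (minus strand), Ifitm1 at chr7:140967221-140969825 (plus strand) and Ifitm3 at chr7:141009586-141010770 (minus strand). They did not move as one. Ifitm3, the endosomal member best known for restricting influenza virus, had 73.4, 68.6, 73.3, 75.3 and 86.0 CPM in WT and 49.9, 44.1, 68.7, 40.6 and 44.8 CPM in Mir483Pat-KO libraries. Mutant replicate 3 was level with the lowest WT library and the other 4 were below all of them. The mean fell from 75.3 ± 6.46 to 49.6 ± 11.2 CPM, a log2 fold change of −0.60 ± 0.12 with an adjusted p of 0.00956. That is 1.52-fold, at the edge of the threshold: the fold change dropped under 1.5 without WT replicate 5 (−0.55) or Mir483Pat-KO replicate 2 (−0.57), 4 (−0.55) or 5 (−0.57), and the adjusted p was at most 0.0343 over 20 alternative analyses (other scalings, tests, filters and covariates, and each library left out).

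Ifitm1, the member found mostly at the cell surface, had 5.50, 8.61, 6.71, 8.22 and 9.43 CPM in WT and 7.01, 5.62, 7.26, 6.57 and 7.75 CPM in Mir483Pat-KO libraries. Ifitm2, another endosomal member, had 27.9, 33.7, 34.8, 29.4 and 25.7 CPM in WT and 30.9, 35.5, 37.6, 32.6 and 32.8 CPM in Mir483Pat-KO libraries. Both genes overlapped between the groups, although for Ifitm2 3 WT libraries lay below all mutants and 2 mutants above all WT libraries. Their log2 fold changes were −0.17 (95% interval −0.46 to 0.12, adjusted p = 0.534) and 0.16 (−0.02 to 0.34, adjusted p = 0.321), and no call was made for either under any of the 20 alternatives. The intervals leave room for a modest change but lie inside a 1.5-fold change in either direction, while that of Ifitm3 runs from −0.83 to −0.37. Within each library, the log2 ratio of Ifitm3 to Ifitm2 counts was 1.02 to 1.74 in WT and 0.31 to 0.87 in Mir483Pat-KO, and that of Ifitm3 to Ifitm1 was 2.99 to 3.74 in WT and 2.53 to 3.24 in Mir483Pat-KO. The first pair of ranges did not overlap and the second did. These ratios were chosen after the values had been seen and are given without a test.

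Ifitm2 shares 48.5% of its 50-base stretches with other genes, and 40.9% of its exonic bases lie in the same-strand gene Gm45717, which had 0 counts in every library. Its level is therefore less certain than those of Ifitm3 (10.02% shared) and Ifitm1 (5.02%). The promoter window of Ifitm2 held 1 match to the response element core and that of Ifitm1 none. Ifitm3 had 2 matches, both past the annotated start and so not shown. The stretch upstream of Ifitm2 is given because this gene carried a match and was not lower.
Ifitm2, chr7:140955986-140956019, minus strand: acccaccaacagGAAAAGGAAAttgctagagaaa

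Bst2, on chromosome 8 (chr8:71534255-71537456, minus strand), was the only one of the 6 called genes that was called in each of the 20 alternatives. It had 35.8, 31.9, 36.8, 37.6 and 44.1 CPM in WT and 23.9, 18.3, 31.2, 21.3 and 23.1 CPM in Mir483Pat-KO libraries. The groups did not overlap, and mutant replicate 3 came closest to the WT libraries. The mean fell from 37.2 ± 4.43 to 23.5 ± 4.79 CPM, a log2 fold change of −0.66 ± 0.12 with an adjusted p of 0.00700. Over the alternatives the log2 fold change ran from −0.79 to −0.59 and the adjusted p was at most 0.0436. None of its 50-base stretches occur in another gene. Its promoter held overlapping matches to the response element core and 1 match to the gamma-activated site that starts before the first of them and shares its first bases (TTCNNNGAA, a palindrome, found in 8.30% of all windows), a motif known from genes that interferon gamma induces. Of the 9 genes, Ifit2 (at -241 from the start) and Ifitm3 (at 13) also held 1 such match each.
Bst2, chr8:71537575-71537614, minus strand: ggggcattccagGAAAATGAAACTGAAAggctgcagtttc

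Rsad2, on chromosome 12 (chr12:26442746-26456452, minus strand), had the most reads of the 9 genes and varied widely among the mutants. It had 353, 364, 383, 343 and 316 CPM in WT, a narrow range, and 205, 133, 434.6, 180 and 141 CPM in Mir483Pat-KO libraries. Replicate 3 was above every WT library and the other 4 mutant libraries were below all of them. The mean was 352 ± 24.9 in WT and 219 ± 124 in Mir483Pat-KO, with a log2 fold change of −0.69 ± 0.24 and an adjusted p of 0.102. Without Mir483Pat-KO replicate 3 the log2 fold change was −1.10 with an adjusted p of 0.000149. With the replicate number as a block (replicate block) it was −0.83 with an adjusted p of 0.00846, although the labels do not state that the numbers pair fetuses. The upstream stretch of Rsad2 with its single match to the response element core is as follows.
Rsad2, chr12:26456551-26456584, minus strand: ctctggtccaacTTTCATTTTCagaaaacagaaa

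The mutant libraries were not alike. The 6 genes called were picked as lower in these same libraries, so only the differences among the mutants are read here. Over those genes, Mir483Pat-KO replicates 2, 4 and 5 were below all WT libraries in 6 of 6, and replicates 1 and 3 in 5 of 6. Replicate 1 missed at Ifit2 and replicate 3 at Ifitm3. In replicate 1 the Ifit genes had a log2 CPM between −0.37 and −0.17 relative to the WT mean, while Ifitm3, Bst2 and Rsad2 were clearly lower (−0.59, −0.63 and −0.78). Replicate 3 showed the other order: the Ifit genes were between −0.65 and −0.31, whereas Ifitm3 was at −0.13, Bst2 at −0.25 and Rsad2 at 0.31. Replicates 2 and 5 were lowest in Ifit1, at −1.59 and −1.87. The SD of log2 CPM was 4.24 times as large in mutants as in WT for Ifit1 and 6.603 times for Rsad2, with a median ratio of 0.935 over all genes tested. For Ifitm1 and Ifitm2 it was smaller in the mutants, at 0.562 and 0.607 times.

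**Figure D3:**
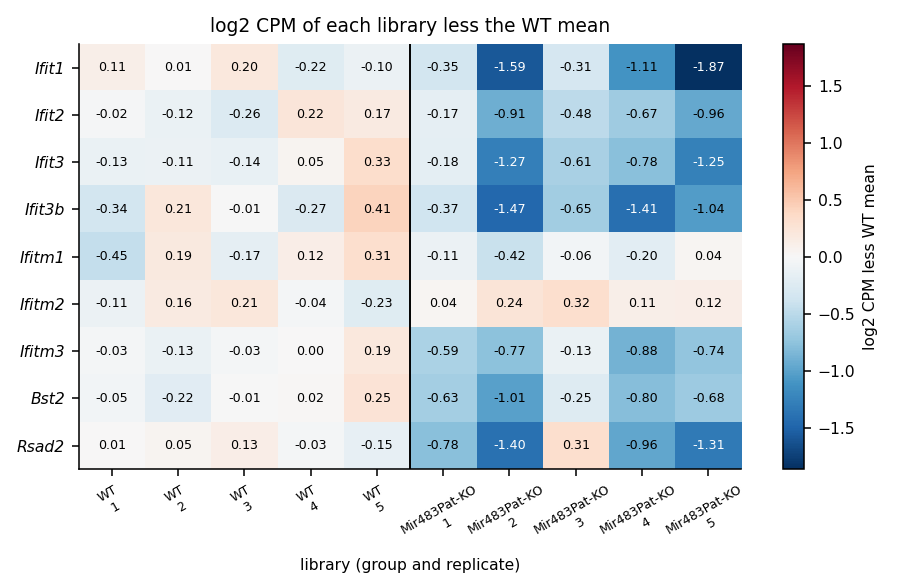
Log2 CPM (with a prior count of 2) of each gene in each library, less the WT mean of that gene, with WT on the left and Mir483Pat-KO on the right of the black line. The 6 called genes, picked as lower in these same libraries, are below the WT mean in every mutant library, from −0.13 to −1.87. Ifitm2 is above its WT mean in all 5.

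After each gene had been centred within its genotype, the 6 pairs of Ifit genes correlated over the 10 libraries with r between 0.57 and 0.93 (Ifit2 with Ifit3). Bst2 and Ifitm3, which lie on different chromosomes, had r = 0.90. Against the mean of the 4 Ifit genes, r was 0.65 for Rsad2, 0.64 for Bst2, 0.63 for Ifitm3, 0.32 for Ifitm1 and −0.18 for Ifitm2, where the 99th percentile of all genes was 0.74. The 5 other genes most like the Ifit mean were Mx1 (r = 0.95), Ddx60 (0.92), Irgm1 (0.92), Pipox (0.91) and Cmpk2 (0.91). Mx1, Ddx60, Irgm1 and Cmpk2 are interferon-induced antiviral or host defence genes, and Pipox encodes a peroxisomal oxidase. These correlations are descriptions: all genes share the same 10 libraries and their depth.

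Neighbouring genes were compared within 100 kb of each locus. At the Rsad2 locus Cmpk2, a nucleotide kinase gene 12.8 kb away that is induced by interferon, was called lower. It had 46.9, 45.4, 48.7, 55.96 and 52.5 CPM in WT and 38.4, 23.0, 33.2, 23.1 and 19.1 CPM in Mir483Pat-KO libraries, with no overlap. Its log2 fold change was −0.87 (adjusted p = 0.00455), and in mutant replicate 3, where Rsad2 was highest, Cmpk2 was below all WT libraries. At the other loci the smallest p belonged to Plvap by Bst2 (log2 fold change −0.30, adjusted p = 0.148, 13 genes tested), Lipa by the Ifit genes (−0.18, 0.183, 3 tested) and Nlrp6 by the Ifitm genes (−0.23, 0.0730, 12 tested), none of which passed in this fit. Lower in the mutants were 10 of the 13 genes tested by Bst2 (median log2 fold change −0.14), 10 of the 12 by the Ifitm genes (−0.18) and 2 of the 3 by the Ifit genes (−0.10), where 49.1% of all genes tested were lower.

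Of 6 further relatives of the Ifit and Ifitm genes, 2 had enough counts to test. Ifitm6, a myeloid relative in the Ifitm cluster, had 26.9 to 33.7 CPM in WT and 30.8 to 39.5 in Mir483Pat-KO libraries (log2 fold change 0.19, adjusted p = 0.211). Ifit1bl2, which had 5 to 14 counts per library, did not differ beyond its spread (0.05, adjusted p = 0.942). The median log2 fold change of this pair was 0.12.

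The rest of the interferon pathway was read in the same fit, in lists chosen with earlier results of these data known. Of 32 other interferon-stimulated effector genes, all tested, 31 were lower in the mutants, 23 of them with an adjusted p below 0.05 and 13 called, beside 49.1% lower, 2.76% lower at that adjusted p and 0.872% called lower over all genes tested. Their median log2 fold change was −0.60. Irf7, the transcription factor that amplifies interferon production, fell from a mean of 75.99 to 36.8 CPM, or by 1.05 on the log2 scale (adjusted p = 0.00133), and Oasl1, an inhibitor of Irf7 translation, from 6.06 to 2.31 CPM (−1.39, 0.00133). In both genes all mutant libraries were below all WT libraries. Among 12 genes for interferon receptors, JAK kinases, STAT proteins and Irf9, 3 passed the adjusted p as lower and 1 as higher, where 2.76% and 2.43% of all genes did. The median log2 fold change of the 12 was 0.01. Stat2 went from 90.2 to 60.9 CPM (−0.57, adjusted p = 0.00307), without overlap and less than 1.5-fold.

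Among 10 inhibitors of interferon signalling, 9 were tested, with a median of −0.02. Usp18, which is itself interferon-induced and shuts off the type I receptor, was called lower (34.5 to 19.4 CPM, −0.83, adjusted p = 0.00456). Socs3, which restrains JAK kinases downstream of cytokine receptors such as that of interleukin 6, had 9.50 to 12.1 CPM in WT and 12.5 to 17.3 CPM in Mir483Pat-KO libraries (0.42, adjusted p = 0.0379). It no longer passed when WT replicate 1, 4 or 5 or mutant replicate 3, 4 or 5 was left out (adjusted p from 0.0588 to 0.0877). Of 21 genes for the interferons themselves, 19 had 0 counts in every library, which allows up to between 0.203 and 0.277 CPM per library at 3 counts. The other two were Ifng with 3 counts and Ifnk with 1 count over all 10 libraries.

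**Figure D4:**
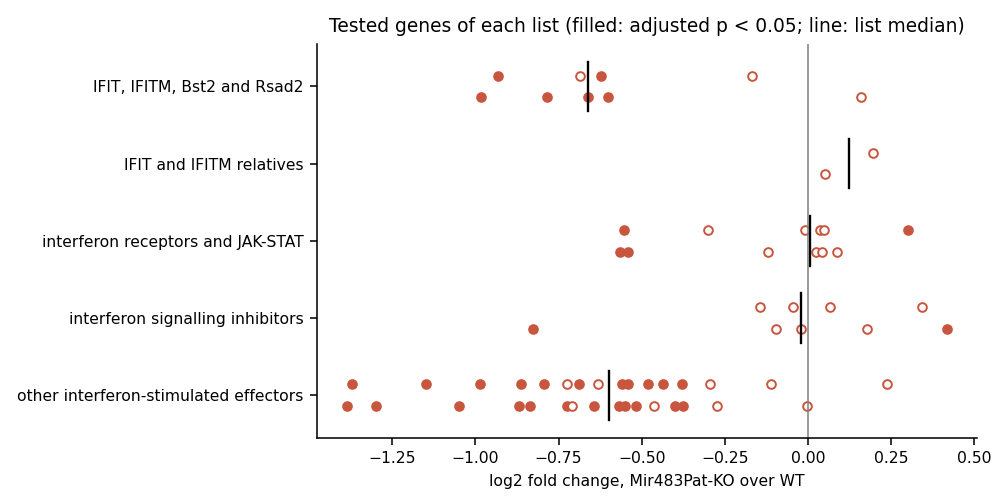
Log2 fold change of every tested gene of 5 lists, filled at an adjusted p below 0.05, with a black line at the median of each list. The 9 antiviral genes (median −0.66) and the 32 other effectors (−0.60) lie mostly below 0, and the receptors and JAK-STAT genes (0.01) and inhibitors (−0.02) lie on both sides of it.

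Markers of the cell types in fetal liver were read beside these results. Since each library is from whole liver, fewer cells of a type and less RNA per cell cannot be told apart. Of 11 erythroid markers, 10 were in the table. These summed to 16222 to 20774 CPM in WT and 18998 to 26896 CPM in Mir483Pat-KO, and 2 of them passed the adjusted p as higher, 1 of these being called (2.43% and 0.355% of all genes tested). In mutant replicates 1 to 5 they were 18998, 20711, 26796, 26896 and 24976 CPM, of which the first pair lay within the WT range.

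Of the 10 hepatocyte markers, 8 were lower and 1 of these passed the adjusted p. Of all genes tested 49.1% were lower, and 2.76% were lower at that adjusted p. Mutant replicates 3, 4 and 5, which are the mutants of the upper range of identification numbers described next, stood apart in both lists, with hepatocyte sums (201231, 204782 and 204338 CPM) below and erythroid sums above those of every WT library. The 11 macrophage markers summed to 850 to 1056 CPM in WT and 752 to 986 CPM in Mir483Pat-KO, with 2 lower at the adjusted p (2.76% of all genes). The 10 endothelial markers summed to 634 to 727 and 557 to 678 CPM, with 9 lower and 0 of them at the adjusted p. Summed levels also overlapped for neutrophil (2509 to 3777 in WT and 3192 to 3682 CPM in Mir483Pat-KO) and stellate and mesenchymal markers (575 to 1085 and 532 to 825). The same held for B lymphoid (88.6 to 113 and 100.4 to 127), megakaryocyte (198 to 368 and 200.5 to 284) and bile duct markers (41.6 to 95.6 and 57.1 to 85.8). At the adjusted p, 1 B lymphoid marker was higher and 1 megakaryocyte marker lower (2.43% and 2.76% of all genes). Plasmacytoid dendritic markers, of cells known for making interferon, summed to 3.14 to 6.47 CPM in WT and 3.48 to 5.96 in Mir483Pat-KO, and NK and T cell markers to 8.38 to 9.64 and 7.21 to 10.6 CPM. No marker list was wholly at 0, and the part of these cell types in the differences was not tested.

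The labels carry an identification number for each fetus, which falls into a lower range (4 WT and 2 Mir483Pat-KO) and an upper range (1 WT and 3 Mir483Pat-KO), and what separates the ranges is not stated. In the lower range alone, 3 of the 9 genes were called: Ifitm3, Bst2 and Rsad2, the last with a log2 fold change of −1.10 and an adjusted p of 0.0212. Over all genes 19 were called lower and 2 higher in that range, beside 123 and 50 in the fit of all 10 libraries. There Ifit1 (−0.88), Ifit2 (−0.46), Ifit3 (−0.55) and Ifit3b (−0.76) kept their sign and did not pass, with adjusted p from 0.181 to 0.303. With the range as a covariate over all 10 libraries, 6 of the 9 genes were called, while over all genes 129 were called lower and 107 higher. Cmpk2 (−0.68, adjusted p = 0.136) and Oasl1 (−1.37, 0.0944) lost their calls in the lower range, and Stat2 (−0.43, 0.165) and Socs3 (0.18, 0.560) did not pass there. Socs3 did not pass with the covariate either (adjusted p = 0.0677), where its log2 fold change was 0.37, beside 0.42 without the covariate. The upper range, fitted alone after the data had been seen, holds 1 WT library, so the WT spread was not measured and was assumed to be that of the mutants. The log2 fold changes there were −0.89 for Ifit1, −0.88 for Ifit2, −1.22 for Ifit3, −1.46 for Ifit3b, −0.75 for Ifitm3, −0.82 for Bst2 and −0.34 for Rsad2. In that range all 3 mutant libraries were below that WT library for all of the 9 genes except Ifitm2 and Rsad2. Ifitm1, which differed little over all 10 libraries, is thus among them. This order rests on 1 WT library, and its share over all genes tested was not counted, so nothing is read from it.

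The seeds of the 2 mature miRNAs that Mir483 gives rise to are shown in capitals, since loss of these miRNAs is what defines the mutants (RefSeq sequences).
mmu-miR-483-3p: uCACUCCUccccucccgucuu
mmu-miR-483-5p: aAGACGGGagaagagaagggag
A match to the seed of mmu-miR-483-3p (AGGAGTG) was present in the longest annotated 3′ untranslated region of 1 of the 9 genes, Ifit3, against 13.9% of 12888 tested genes with such a region. A match to that of mmu-miR-483-5p (CCCGTCT) was present in none of the 9 and in 3.68% of those genes. A match is a description of the sequence only.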

How the data were processed

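Liver RNA of 5 WT and 5 Mir483Pat-KO fetuses was analysed from the deposited table. It holds raw counts of read pairs per Ensembl gene, which the authors made by aligning paired reads of stranded polyA libraries to GRCm38 with STAR. The strand setting and the treatment of reads that match several genes are not given in the sources used here, which bears on Ifit3, Ifit3b and Ifitm2. All columns matched a sample.

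Genes were filtered with filterByExpr, scaled by TMM and tested with edgeR 4.0.16 (quasi-likelihood, Benjamini-Hochberg over 14098 genes) in R 4.3.3, without covariates. The fit was tested on simulated data. At library totals from 10831350 to 14765880, counting error adds to the spread of genes with few counts. Exon lengths, positions and overlaps came from GENCODE M21 (Ensembl 96), whereas the authors used Ensembl 100. It matched 55141 of 55401 gene IDs. Promoter and miRNA sequences came from RefSeq.

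The genes and the 5 pathway and 11 marker lists were chosen with earlier results of these data known. Named besides the 9 genes were Mir483, the 2 tested genes with the smallest p of each pathway list, at each locus the called neighbours or else the 1 with the smallest p, and the 5 genes most like the Ifit mean. A gene that this rule names is not reported here. Libraries that share a replicate number across the genotypes deviated from their group means with an average r of 0.09 (−0.05 to 0.26). For other pairs across the genotypes it was −0.02 (−0.22 to 0.21). The labels state no pairing, and the numbers were not taken as pairs. Alternatives were RLE scaling, DESeq2 1.42.0, limma-voom 3.58.1, a robust fit, 2 other filters, the replicate block, the identification number range, offsets for GC content and length, and leaving out each library. A fit of the upper identification number range alone was added after the data had been seen.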

Additional observations from a re-analysis of the deposited data

Results flagged for a closer look

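Rsad2 in Mir483Pat-KO replicate 3, at 434.6 CPM, stood apart from the other 4 mutant libraries, the highest of which was at 205 CPM. The gap between them, as a fraction of the range of the group, was 0.763, above Dixon's limit of 0.71 for 5 samples. It was the only value to do so among 18 groups of 5 (9 genes in 2 genotypes), and chance flags about 1 in 20 groups.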

How the results depend on the processing

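The number of the 9 genes called lower (6) was 5 to 7 under the other scaling, tests, filters, covariate and offsets, and 7 with the replicate block, where Rsad2 was added. In the lower identification number range it was 3, and 3 genes had an adjusted p below 0.05. Leaving out 1 library gave 1 to 7 called and 2 to 7 at that adjusted p. Over all genes, 123 lower and 50 higher calls became 222 and 99 without a low-count filter, 19 and 2 in the lower range, 217 and 511 in the upper range (added after the data had been seen, with 1 WT library and thus no measured WT spread), and 80 to 171 and 17 to 66 without 1 library. Higher calls were 107 with the range as covariate and 29 with the offsets. Of 180 gene and alternative pairs for the 9 genes, 155 kept their side of the threshold, 20 lost a call, 5 gained one (all Rsad2) and 0 changed sign. Ifit1 lost its call with the robust fit (adjusted p = 0.0966). Rsad2 gained one with limma-voom (−0.83, 0.0432) and without a low-count filter (−0.69, 1.06e-05). Ifit1bl2, at 5 to 14 counts, turned to −0.077 with the offsets and −0.15 in the upper range, and ranged from −0.13 to 0.16 without 1 library, with −0.004 without WT replicate 2 and −0.015 without Mir483Pat-KO replicate 2; the cause was not tested. With 5 fetuses a group and a mutant spread this wide for Ifit1 and Rsad2, single libraries decide calls, and counts of 24 to 114 limit Ifit3b.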
